A study of Mus musculus with 37 samples.

Results

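The 10 Notch pathway genes described here were Notch1, Notch2, Notch3, Notch4, Jag1, Jag2, Dll1, Dll4, Hes1 and Hey1, out of 24421 gene symbols in the count table. They were chosen by symbol, as receptors, ligands and targets of one pathway, and the rule that lists them uses no measured value, although earlier results of these data were known when they were listed. Whole-transcriptome sequencing covered 37 libraries of female BALB/c mice, which develop upper tract urothelial carcinoma (UTUC) under the bladder carcinogen N-butyl-N-(4-hydroxybutyl)nitrosamine (BBN). UT was upper urinary tract with cancer from mice that drank BBN (11 libraries from 10 mice), UN the side without cancer in 7 of those mice (7 libraries), and U the upper urinary tract of mice given tap water (6 libraries from 3 mice). The bladders of the 10 BBN-treated mice and of the 3 tap water mice gave 1 library each. BBN was given at 0.05% in drinking water from 6 to 7 weeks of age. The labels give 18 weeks of treatment, and the study's methods 17 to 20 weeks. All mice shared strain and sex. The column of BBN bladder 6 carries the letter T, which marks cancer in the columns of the ureter, where those of the other BBN bladders carry N, and its title says only bladder, so it was kept with them. For its own comparison of UT with UN the study gives fewer UT samples than the labels do, without saying which. All deposited UT libraries were kept.

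Notch signaling works between touching cells. A ligand of the Jagged or Delta-like family on one cell binds a Notch receptor on its neighbor, the receptor is cut by ADAM proteases and γ-secretase, and its intracellular part enters the nucleus, where it joins RBPJ and Mastermind to switch on genes of the Hes and Hey families. In urothelium the pathway has been linked both to differentiation and to tumors. Notch4 and Dll4 are best known from blood vessel endothelium, where Dll4 limits sprouting.

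The tissue labels were checked against marker genes. Summed over 10 epithelial markers, every group had signal, with the lowest value of 31.1 counts per 1000000 counts of the library (CPM) in UN 2. UN 2 and UN 6 (770 CPM) lay far below the UN median of 4500 CPM, and UN 2 had the highest adipocyte sum of UN, 52900 CPM. Adipocyte markers summed to between 38300 and 60600 CPM in U and to between 71.9 and 1630 CPM in the untreated bladders. UT 4 had 2330 CPM of kidney tubule markers, and the median of UT was 5.07 CPM. Counts per library ranged from 3557697 to 18793560, and 4 libraries lay under 8000000. The library codes fell into 2 ranges. The second held UT 8, UT 9, UT 10, UN 9 and BBN bladder 8, 9 and 10, and no untreated library. It included the highest Jag1 of UT (UT 10) and the highest Notch1 of UT (UT 8) and of the BBN bladders (BBN bladder 8). Its part in the levels was not tested.

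The promoter windows of Notch4 and Dll4 are shown because these genes had the most similar profiles of all pairs of members across the libraries. Windows came from RefSeq on GRCm38.p6. Of the 10 members, 8 matched, with 9 windows, and Hes1 and Hey1 are only named. Each printed stretch runs 5′ to 3′ from 250 bases before the transcript's start to base 10 of the transcript, on the plus strand. Capitals mark TGACTCA, the AP-1 motif, and AGGAAG, which holds the GGAA core of ETS factors, on either strand (CTTCCT is the reverse complement of AGGAAG).
Notch4, chr17:34564045-34564304: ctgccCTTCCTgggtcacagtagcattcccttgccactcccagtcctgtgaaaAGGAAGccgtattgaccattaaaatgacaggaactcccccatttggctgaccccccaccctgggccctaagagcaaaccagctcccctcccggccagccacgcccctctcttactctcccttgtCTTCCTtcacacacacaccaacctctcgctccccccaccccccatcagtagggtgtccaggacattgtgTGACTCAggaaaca
Dll4, chr2:119325534-119325793: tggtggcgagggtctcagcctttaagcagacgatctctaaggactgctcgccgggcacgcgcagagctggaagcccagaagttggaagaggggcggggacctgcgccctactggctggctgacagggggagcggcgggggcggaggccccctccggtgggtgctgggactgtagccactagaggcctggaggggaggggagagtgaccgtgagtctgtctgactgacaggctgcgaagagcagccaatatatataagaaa
The Notch4 window of 300 bases held TGACTCA once, from 4 bases before the start to base 3 of the transcript, and AGGAAG at 4 places. The Dll4 window held neither. Among 32851 promoter windows of the same length, 5.2% held TGACTCA on either strand and 35.4% held AGGAAG. The core that RBPJ binds, TGGGAA, was in none of the 9 windows of the members and in 25.6% of all windows. A match in letters is a description and not a bound site.

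Of the receptors, Notch1, which acts in many epithelia, was at 170, 179 and 217 CPM in the untreated bladders. In U it ran from 23.2 to 57.4 CPM with a median of 51.4, in UN from 10.3 to 85.1 (median 56.3) and in UT from 33.6 to 117 (median 51.5). The 3 ureter groups overlapped throughout and lay below the untreated bladders in every library. The BBN bladders had the widest range, from 12.4 CPM in BBN bladder 6 to 213 CPM in BBN bladder 8, with a median of 62.4. Notch2, also a receptor of epithelia, had medians of 38.6 CPM in U, 46.0 in UN, 50.2 in UT, 64.1 in untreated bladder and 50.3 in BBN bladder. Notch3, known from pericytes and vascular smooth muscle, had medians of 27.8, 18.1, 25.7, 48.0 and 29.0 CPM in the same order. For Notch2 and Notch3 the ranges of UT, UN and the BBN bladders overlapped with all other groups.

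**Figure D1:**
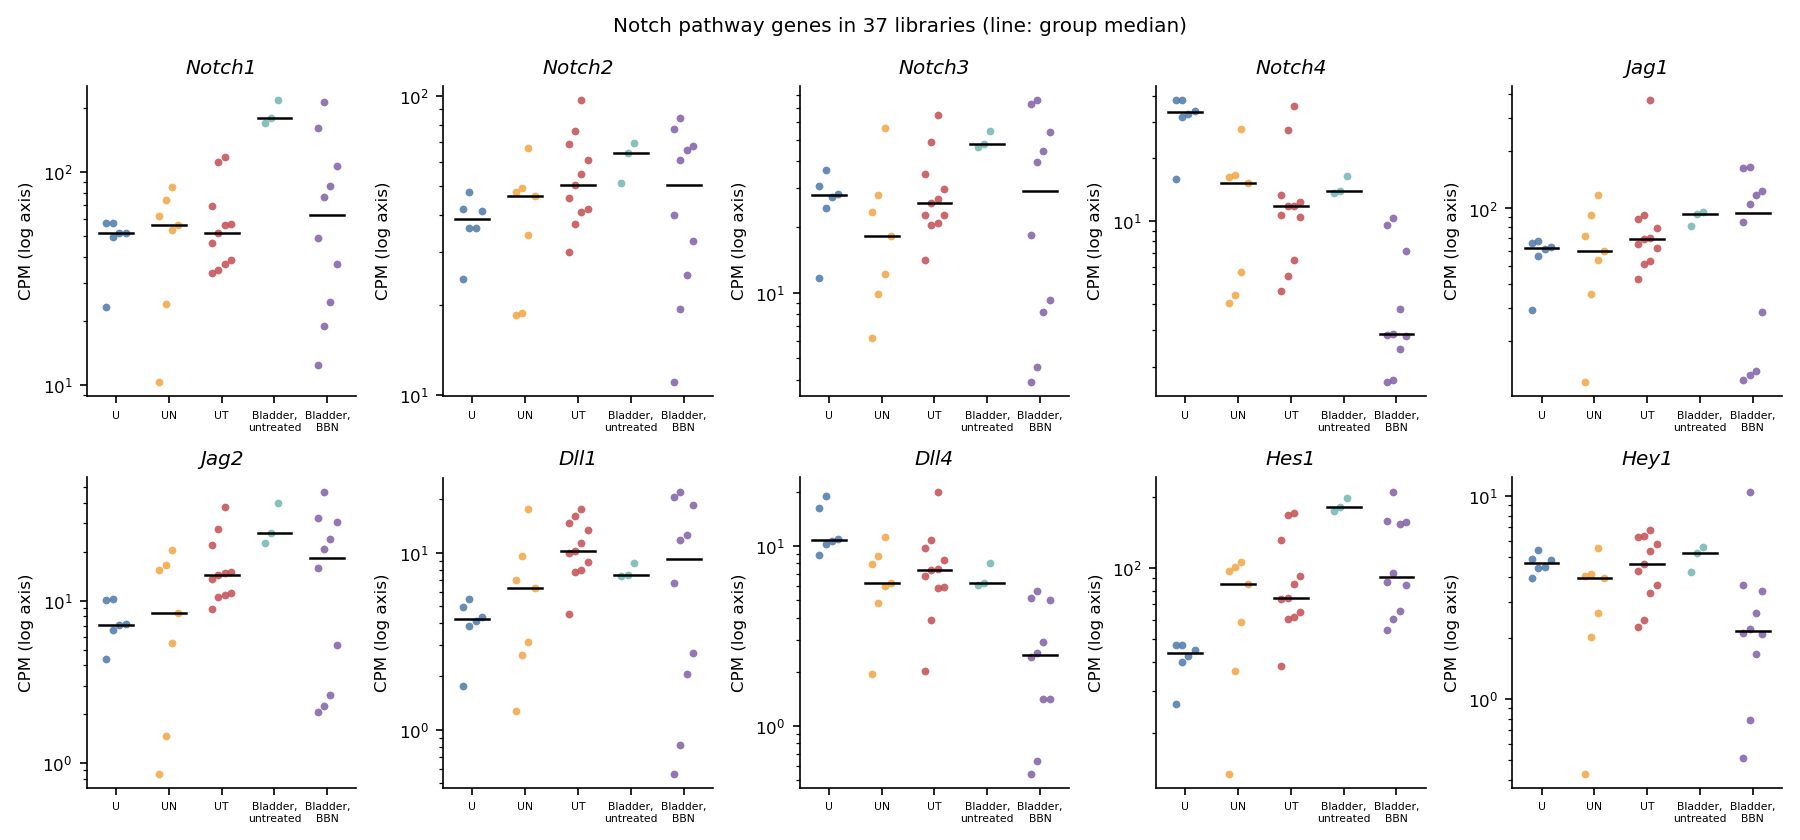
CPM of the 10 Notch pathway genes (log axis, which starts above 0 and differs between panels) in every library of the 5 groups, with 1 point per library and a line at the group median. Notch4 sits between 31.6 and 38.1 CPM in 5 of the 6 U libraries and between 1.68 and 10.3 CPM in the BBN bladders.

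Notch4 had its highest mean in U, at 15.9 CPM in U 6 and 31.6 to 38.1 CPM in the other 5 libraries (median 33.3). The untreated bladders had 13.7, 13.9 and 16.4 CPM. UN ran from 4.06 to 27.8 CPM (median 15.3), UT from 4.59 to 35.8 (median 11.8) and the BBN bladders from 1.68 to 10.3 (median 2.86). Thus 9 of 11 UT libraries lay below all of U, the exceptions being UT 8 at 27.3 CPM and UT 9 at 35.8 CPM, and all 10 BBN bladders lay below all untreated bladders. UT 8, UT 9 and UN 9, the highest of UN, are of the second range of library codes, whose part in these levels was not tested.

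Among the ligands, Jag1, which is widely expressed in epithelium and vessels, ranged from 29.2 to 67.5 CPM in U (median 61.9), 12.1 to 118 in UN (median 59.7) and 42.5 to 373 in UT (median 69.4). The value of 373 CPM was that of UT 10, and the other UT libraries ended at 92.0 CPM. Untreated bladders had 80.8, 93.6 and 95.6 CPM, and the BBN bladders split into 4 libraries between 12.4 and 28.6 CPM and 6 between 84.7 and 165 CPM. The 4 low libraries (BBN bladder 1, 3, 4 and 6) had 8.47 to 10.7% of their counts on genes with at least 8 kb of exon, and the other 6 had 13.7 to 16.9%, and 3 of the 4 were under 8000000 counts. The part of either in this split was not tested. Jag2, a ligand of stratified epithelia, ran from 4.36 to 10.3 CPM in U (median 7.13), 0.856 to 20.5 in UN (median 8.41) and 8.89 to 37.8 in UT (median 14.5). All UT libraries but UT 9 were above all of U. Untreated bladders had 22.8, 26.1 and 39.8 CPM of Jag2, and the BBN bladders 2.05 to 47.1 (median 18.4), on both sides of them.

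Of the Delta-like ligands, Dll1 ran from 1.76 to 5.47 CPM in U (median 4.22), 1.28 to 17.6 in UN (median 6.29) and 4.50 to 17.7 in UT (median 10.2). All UT libraries but UT 1 lay above all of U. Untreated bladders had 7.40, 7.46 and 8.72 CPM of Dll1 and the BBN bladders 0.562 to 22.1 (median 9.23). Dll4 was instead highest in U, where it lay between 8.89 and 18.8 CPM (median 10.7), with 1.94 to 11.2 in UN (median 6.22), 2.02 to 20 in UT (median 7.32), 6.06, 6.19 and 8.06 in the untreated bladders and 0.543 to 5.65 in the BBN bladders (median 2.49). In Dll4, 8 of 11 UT libraries were below all of U, and every BBN bladder was below every untreated bladder. Low CPM meant few reads in the shallow libraries. The lowest counts were 2 for Dll1 and 5 for Dll4 in a BBN bladder and 4 for Jag2 in a UN library.

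Of the targets, Hes1, a repressor induced by Notch and by other signals, was at 26.4 to 47.1 CPM in U (median 43.7), 13.4 to 106 in UN (median 85.7), 38.2 to 170 in UT (median 74.7) and 54.6 to 210 in the BBN bladders (median 91.1). Untreated bladders had 174, 181 and 198 CPM. All UT libraries but UT 9 lay above all of U, and U lay below the untreated bladders. Hey1, the second target, was low in all groups, with medians of 4.66 CPM in U, 3.94 in UN, 4.63 in UT, 5.26 in untreated bladder and 2.16 in BBN bladder. All 5 groups of Hey1 overlapped, with the extremes at 0.428 CPM (2 counts) in UN 6 and 10.5 CPM in BBN bladder 10.

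Per kilobase of exon (GENCODE vM21), Hes1 was the most abundant member in every group, at 20.3 ± 3.84 CPM per kb in U (SD, n = 6), 35.0 ± 17.5 in UN (n = 7), 45.5 ± 21.6 in UT (n = 11), 90.4 ± 6.21 in untreated bladder (n = 3) and 55.1 ± 25.8 in BBN bladder (n = 10). Of the ligands Jag1 had the highest mean per kb in every group, at 9.80 ± 2.44 in U, 10.9 ± 6.07 in UN and 16.3 ± 16.1 in UT. The receptors were close together in U, at 3.4 ± 0.896 for Notch1, 3.51 ± 0.723 for Notch2, 3.27 ± 1.02 for Notch3 and 3.93 ± 1.01 for Notch4, and did not differ beyond their spread. In untreated bladder they spread out, from 13.3 ± 1.75 for Notch1 to 1.82 ± 0.186 for Notch4. Within U, the members with the lowest means were Dll1, Hey1 and Jag2, at 0.964 ± 0.302, 1.43 ± 0.156 and 1.09 ± 0.322.

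UT against U asked what differs between BBN-induced tumors and untreated upper urinary tract. Notch4 was 2.78-fold lower in UT and Dll1 was 2.27-fold higher. Hes1 and Jag2 were 1.87-fold higher and Dll4 was 1.89-fold lower, with an adjusted p under 0.1 at a fold change under 2. The log2 fold changes were -1.48 ± 0.38 for Notch4 (SE, FDR 0.00364) and 1.18 ± 0.34 for Dll1 (FDR 0.00775) in edgeR's quasi-likelihood fit, with the FDR of Benjamini and Hochberg taken over all genes. They were -0.92 ± 0.35 for Dll4 (FDR 0.0352), 0.90 ± 0.33 for Hes1 (FDR 0.0305) and 0.90 ± 0.41 for Jag2 (FDR 0.076). Notch1 at 0.02, Notch2 at 0.25, Notch3 at -0.09, Jag1 at 0.45 and Hey1 at -0.26 did not pass (FDR of 0.354 or more). A gene was called where its FDR lay under 0.1 and it changed 2-fold or more, the thresholds of the study. The call was met by 2 of 10 members, 1 in each direction, and by 30.9% of the 15658 genes tested, with 18.7% called higher and 12.3% lower, and FDR alone by 5 of 10 members and by 52.5% of genes. The members' median log2 fold change was 0.14, and that of all genes was 0.11. With the RNA integrity number as a covariate Dll1 was at 1.0, just short of the call (FDR 0.0286). Dll4 was also called in 3 of 11 other settings, with log2 fold changes down to -1.39 (FDR 0.00136), and without UT 9, at -1.22 (FDR 0.00271), or U 3, at -1.01, and Jag2 without U 2, at 1.0.

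**Figure D2:**
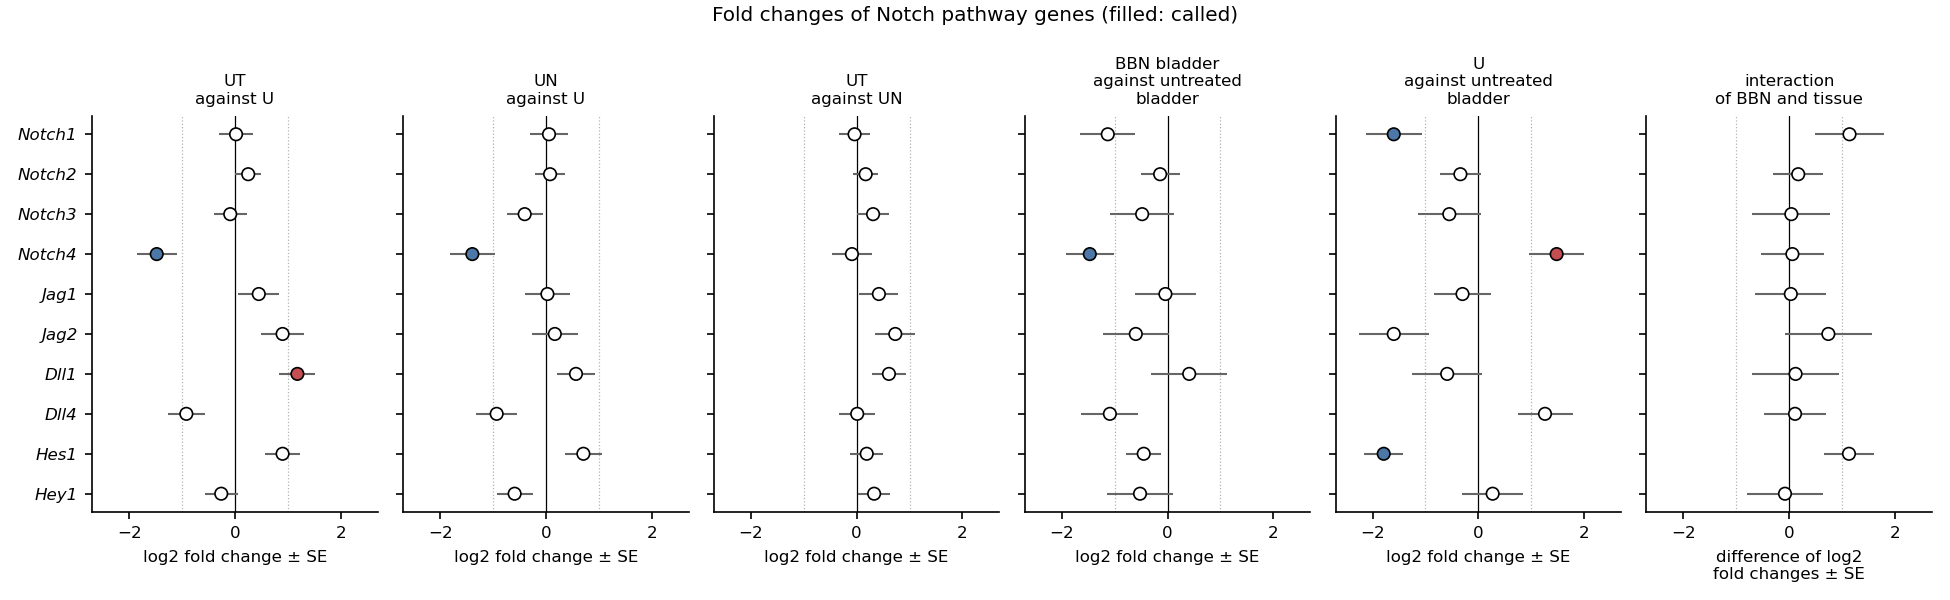
Log2 fold change of each Notch pathway gene ± SE in 5 comparisons and, in the last panel, the difference of the BBN effect between upper urinary tract and bladder. Filled points met the call, with dotted lines at a 2-fold change, blue lower and red higher, and Notch4 is filled in 4 of the 6 panels.

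Markers of other cell types moved in the same comparison, and their part in the results was not tested beyond the ratios given next. Of 10 epithelial markers 9 were higher in UT and none lower, with a median log2 fold change of 2.13. Of the urothelial lists, 9 of 10 basal markers were called higher (median 4.96), and 1 of 9 luminal markers was called higher and 5 lower (median -1.10). Of 12 endothelial markers none was higher and 2 were lower (median -0.61). Lower calls were also met by 6 of 6 adipocyte markers (median -2.59), 8 of 10 smooth muscle markers (-1.72) and 4 of 8 pericyte markers (-0.98), and higher calls by 6 of 8 leukocyte markers (1.76), 5 of 5 tested kidney tubule markers (7.37) and 2 of 7 fibroblast markers (-0.09). The kidney tubule sum had medians of only 2.03 CPM in U and 5.07 in UT, with 2330 CPM in UT 4, so that value does not describe the UT libraries as a group. The endothelial sum ran from 345 to 691 CPM in U (median 574), from 170 to 1030 in UT (median 367) and from 119 to 746 in UN (median 493). UT 9, with the highest endothelial sum of UT, was also the UT library with the highest Notch4 and Dll4. In bulk RNA, fewer cells of a type and less RNA per cell cannot be told apart.

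Notch4 and Dll4 were also set against the endothelial markers, as log2 of the member's CPM over the summed CPM of the list. This scale was chosen after the levels were seen, and 30 such differences, with 4 further members and the other comparisons included, were tested by two-sided exact permutation. Notch4 relative to the endothelial list had a mean of -4.16 ± 0.17 in U (SD, n = 6), -5.31 ± 0.58 in UN (n = 7) and -5.05 ± 0.58 in UT (n = 11). It was lower than in U by 0.90 in UT (exact p = 0.00113, adjusted p = 0.0175) and by 1.15 in UN (exact p = 0.00117, adjusted p = 0.0175), and UN and U did not overlap. With 1 value per mouse, which leaves 3 mice in U, the differences were -0.80 in UT (exact p = 0.014) and -1.15 in UN (exact p = 0.0167, the smallest that 7 against 3 mice allow), and neither passed the adjustment over 30 tests (adjusted p = 0.25). Dll4 relative to the same list differed by -0.28 in UT and -0.60 in UN (exact permutation, adjusted p = 0.588 and 0.408).

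Dll1, Jag2, Hes1 and Notch1 were set against the epithelial list in the same way. Hes1 relative to this list was lower in UT than in U by 0.73 (exact p = 0.00226, adjusted p = 0.0226), while its CPM was higher. With 1 value per mouse that difference was again -0.73 (exact p = 0.028, adjusted p = 0.28). Dll1 differed by -0.35 (exact p = 0.497), Jag2 by -0.71 (exact p = 0.0373, adjusted p = 0.16) and Notch1 by -1.57 (exact p = 0.0107, adjusted p = 0.08). Of these 4, only Hes1 passed an adjusted p of 0.05, and it did not with 1 value per mouse or without U 2, U 3 or U 4 (adjusted p = 0.0549 to 0.0595, exact permutation). Hes1 relative to the list differed by 0.40 in UN against U and by -0.02 in BBN against untreated bladder (exact permutation, adjusted p = 0.831 and 0.951). UN 2, with 31.1 CPM summed over the list, had 13.4 CPM of Hes1, so the ratio is not a level per epithelial cell.

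**Figure D3:**
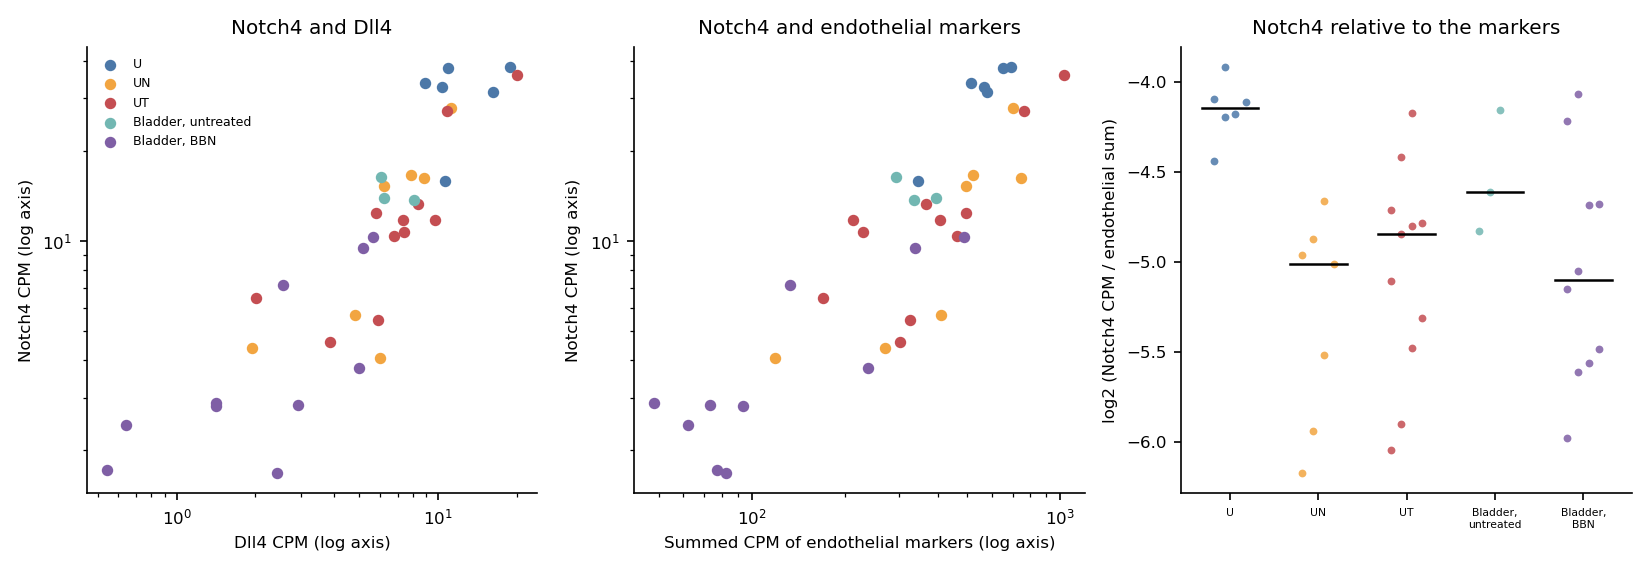
Notch4 against Dll4 CPM (left, log axes), Notch4 CPM against the summed CPM of 12 endothelial markers (middle, log axes) and the log2 ratio of the last pair by group with a line at the median (right), with 1 point per library. All 7 UN libraries lie below all 6 U libraries in the ratio, with means of -5.31 and -4.16.

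UN against U asked what BBN changed on the side without cancer. Notch4 was 2.62-fold lower in UN, and no other member passed. Its log2 fold change was -1.39 ± 0.43 (FDR 0.0369). Dll4 was at -0.93 ± 0.39 (FDR 0.116), Hes1 at 0.71 ± 0.35 (FDR 0.185), Dll1 at 0.57, Hey1 at -0.59, Notch3 at -0.40, Jag2 at 0.17, Notch2 at 0.08, Notch1 at 0.06 and Jag1 at 0.03. The call was met by 1 of 10 members and by 13.7% of 15658 genes, with 12.5% called higher and 1.21% lower. The Notch4 call ended when the libraries of a mouse were summed, which leaves 3 values in U (-1.38, FDR 0.204). Dll4 was called as well under 5 of 11 other settings, at -1.05 to -1.20. Without UN 2, the library with the lowest epithelial sum, Hes1 was at 0.88 and still not called. Both UT and UN were compared with the same 6 U libraries, so these results share their controls. In UN against U, 8 of 10 basal urothelial markers (median 4.57), 3 of 10 epithelial markers (1.37) and 3 of 8 leukocyte markers (1.30) were also called higher, and no endothelial, pericyte, smooth muscle or adipocyte marker was called. Of 9 luminal urothelial markers 1 was called lower and none higher (median -0.92). Their part in the Notch4 result was not tested beyond the ratio to endothelial markers.

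UT against UN compared upper tract with and without cancer under BBN, in 11 and 7 libraries, with both from the same animal in 7 mice. The summed basal urothelial markers ran from 29.4 CPM (UN 2) to 11000 CPM (UN 3) in UN, with 7320 CPM in UN 7, and from 552 to 11600 CPM in UT (median 5950), so the groups overlapped in them. Called lower in UT were 7 of 10 smooth muscle (median -1.42), 1 of 8 pericyte (-0.60), 1 of 9 luminal urothelial (-0.23) and 1 of 3 tested skeletal muscle markers (-0.43). Of 5 tested kidney tubule markers 1 was called higher (4.39), and the part of these cell types was not tested. Without UN 3 or UN 7 the fit called 1779 and 1854 genes, against 864 with all libraries, and other single omissions took the count as low as 5 (without UT 5L). No member was called by edgeR or in any of 12 other settings, DESeq2 included, and 5.52% of 15658 genes were called by edgeR. FDR under 0.1 alone was met by 0 of 10 members and by 8.62% of genes. The largest log2 fold changes were 0.73 ± 0.38 for Jag2 (FDR 0.228) and 0.61 ± 0.32 for Dll1 (FDR 0.219). Notch4 differed by -0.09 ± 0.38, with an approximate 95% interval from -0.82 to 0.65. By mouse, UT exceeded UN for Dll4 and Hey1 in 6 of 7, for Dll1 in 5 of 7 and for Notch1 in 2 of 7. Mouse 2, whose UN library had the lowest epithelial sum of UN (31.1 CPM, group median 4500) and the highest adipocyte sum (52900 CPM), had log2 differences of 3.55 for Jag2 and 2.61 for Jag1, the largest of the 7 mice, and Dll1 differed most in mouse 6, by 2.43. In contrast to the fit that included U, 0 of 15151 genes were called with the 2 groups alone and 0 of 14869 with the mouse as a replicate block as well.

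In bladder, Notch4 was 2.76-fold lower in BBN than in untreated bladder, at -1.47 ± 0.45 (FDR 0.0534). Notch1 at -1.13 ± 0.52 (FDR 0.163) and Dll4 at -1.09 ± 0.54 (FDR 0.191) did not pass. The groups did not overlap for 2 of 10 members, Notch4 and Dll4, and for 17% of all genes tested. Dll1 was at 0.41, Jag1 at -0.04, Notch2 at -0.14, Hes1 at -0.45, Notch3 at -0.48, Hey1 at -0.52 and Jag2 at -0.60. The call was met by 1 of 10 members and by 13.3% of 18050 genes, with 7.61% called higher and 5.74% lower. Leaving out any of the 3 untreated bladders ended the Notch4 call (FDR 0.169 to 0.225). Without BBN bladder 8, whose Notch1 was the highest of its group, Notch1 was called lower at -1.36 (FDR 0.0778).

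The endothelial sum was 293, 335 and 395 CPM in the untreated bladders and 48.3 to 486 CPM in the BBN bladders (median 87.8). Relative to it, Notch4 differed by -0.51 (exact permutation, adjusted p = 0.448) and Dll4 by -0.18 (exact permutation, adjusted p = 0.831), and neither passed. The 12 markers included 1 that was called lower and none higher. In the same comparison 6 of 9 luminal urothelial markers (median -2.92), 3 of 7 fibroblast markers (-1.27) and 2 of 8 pericyte markers (-0.27) were called lower, and 5 of 10 basal urothelial markers were called higher (2.65). Their part in the Notch results was not tested. Leaving out BBN bladder 6 changed no call of a member in this comparison.

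U against untreated bladder compared the 2 tissues without carcinogen. Hes1 was 3.46-fold and Notch1 3.04-fold lower in U, and Notch4 was 2.78-fold higher. The log2 fold changes were -1.79 ± 0.37 for Hes1 (FDR 0.00209), -1.60 ± 0.53 for Notch1 (FDR 0.0455) and 1.48 ± 0.52 for Notch4 (FDR 0.0665). Jag2 at -1.60 ± 0.66 (FDR 0.126) and Dll4 at 1.26 ± 0.52 (FDR 0.125) did not pass. Both did when the BBN libraries were left out of the fit, at -1.58 (FDR 7.04e-05) and 1.27 (FDR 0.000835), and adding the 3 mice as a replicate block gave -1.58 (FDR 6.39e-05) and 1.26 (FDR 0.000693). The call was met by 3 of 10 members and by 14.9% of 18786 genes (7.24% higher and 7.68% lower), and by 5 members in either of those fits. Calls over all genes rose there too, to 4590 of 15318 with the 2 groups alone and 4602 of 15318 with the block. Groups did not overlap for 8 of 10 members and for 52.9% of all genes tested. Of the 8, Dll4 was higher in U and Notch1, Notch2, Notch3, Jag1, Jag2, Dll1 and Hes1 were lower. Summing the libraries of a mouse left only Hes1 (Notch1 FDR 0.186, Notch4 FDR 0.203), as did leaving out any of the 3 untreated bladders, and Notch4 also lost the call without U 3, U 4 or U 5.

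Other cell types also differed between the tissues. Of 10 epithelial markers 6 were lower in U, with a median of -2.19, and of 12 endothelial markers 2 were higher, with a median of 1.05. Called higher in U were also 6 of 6 adipocyte markers (median 6.56) and 4 of 8 pericyte markers (1.21), and called lower were 7 of 9 luminal urothelial (-2.66), 4 of 10 basal urothelial (-1.60) and 4 of 10 smooth muscle markers (-1.25). Their part in the Notch results was not tested beyond the ratios that follow. Relative to the epithelial list, Hes1 was higher in U than in untreated bladder by 0.37 and Dll1 by 1.52, both without overlap (exact p = 0.0238, adjusted p = 0.119 for each). That p is the smallest that 6 against 3 libraries allow, and the test takes no account of the mice that U and the bladders share. Relative to the endothelial list Notch4 differed by 0.38 (exact p = 0.0952).

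Whether BBN acted differently on the noncancerous upper tract and on bladder was tested as an interaction, (UN - U) - (BBN bladder - untreated bladder). No member was called by edgeR or DESeq2, and 2.06% of 18786 genes were called by edgeR. Hes1 differed by 1.13 ± 0.47 (FDR 0.311) and Notch1 by 1.14 ± 0.65 (FDR 0.506), and the other 8 members by less than 1 on the log2 scale. Notch4 differed by 0.06 ± 0.59, with an approximate 95% interval from -1.09 to 1.22, so its fall under BBN was not shown to differ between the tissues. Without UN 2, Hes1 was called at 1.28 (FDR 0.0878). Cell type markers moved in the interaction as well. Called higher were 2 of 9 luminal urothelial (median 2.60), 1 of 7 fibroblast (1.51), 1 of 10 basal urothelial (0.52) and 1 of 8 pericyte markers (-0.20). No marker was called lower, and the part of these cell types was not tested.

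Other genes of the pathway, 54 in a list by role, gave 51 that were tested in every comparison. In UT against U, 4 of 51 were called higher and 3 lower, against 30.9% of all genes in either direction, with a median of 0.10 (all genes 0.11). Dlk2, a noncanonical ligand, was at 3.52 ± 0.84 (FDR 0.002), with 0.293 to 1.62 CPM in U and 0.514 to 47.5 CPM in UT (median 9.99). Mfng, a fringe glycosyltransferase that alters which ligands a receptor binds, fell by 2.31 ± 0.63 (FDR 0.00503), with 93.6 to 137 CPM in U and 3.38 to 112 in UT (median 14.1). UT 2, UT 10 and UT 4, the lowest in Mfng (3.38, 4.43 and 6.28 CPM), had adipocyte sums of 31.3, 937 and 39.1 CPM, and UT 9, the highest, had 32500 CPM. The part of fat in the Mfng difference was not tested. Hes6 rose by 1.93 ± 0.36 (FDR 0.000298) and Dlk1 fell by 1.88 ± 0.80 (FDR 0.0591) at very low levels. The Dlk1 call ended in 2 of 8 other settings (FDR up to 0.216) and without U 2 or U 4. The remaining calls were Adam10 and Dtx3l, higher at 1.12 and 1.11, and Hey2, lower at -1.35, outside the rule for naming and added after their values were seen.

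**Figure D4:**
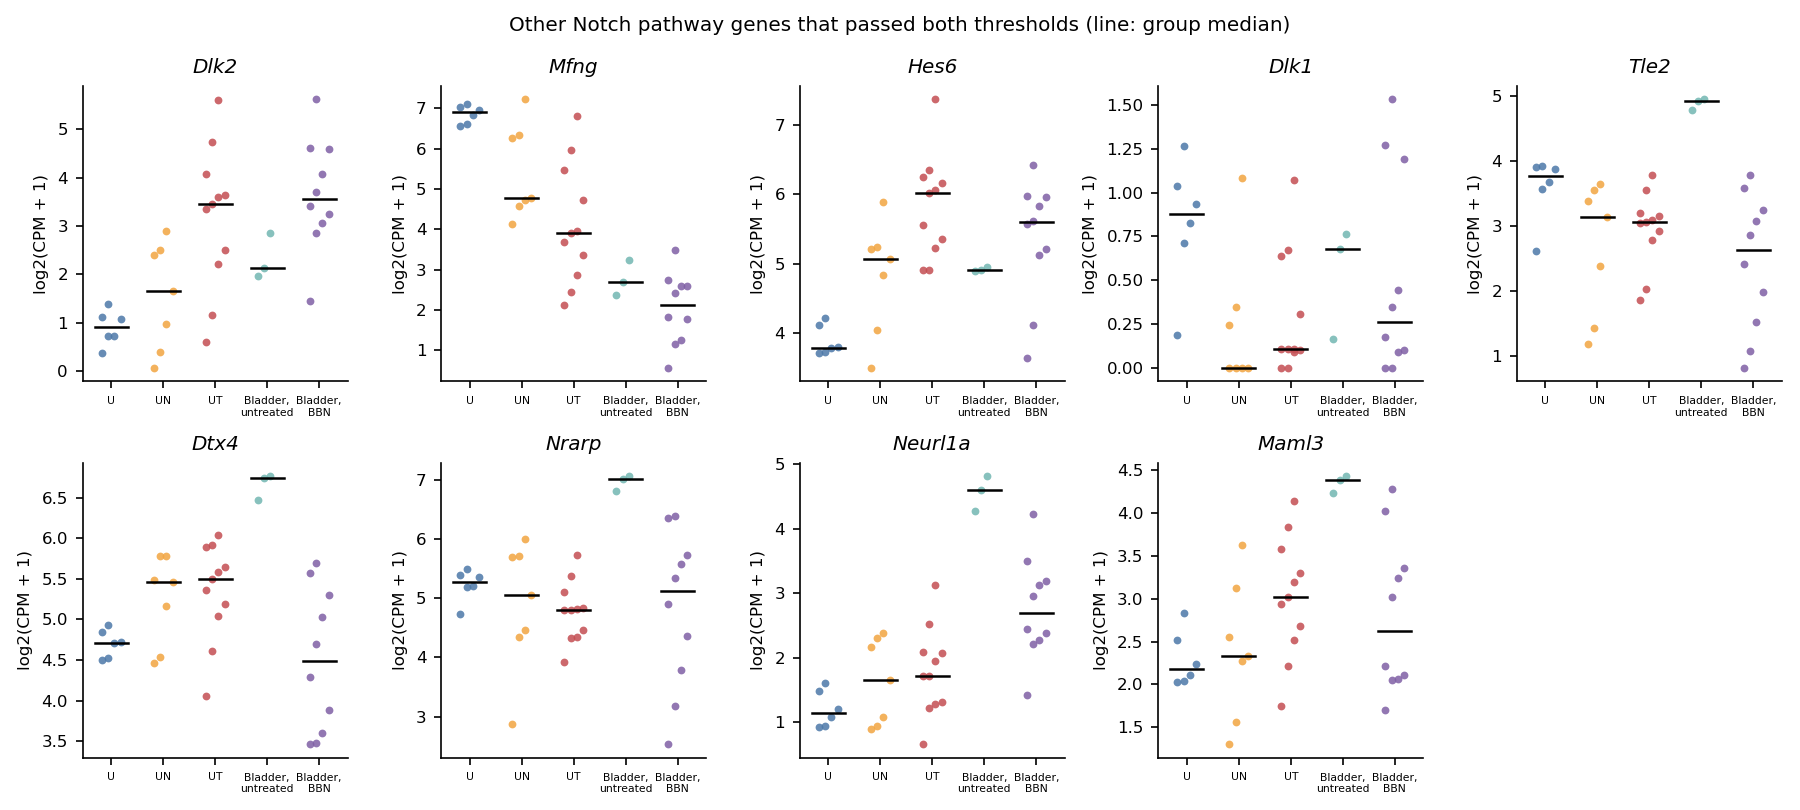
log2(CPM + 1) of 9 other Notch pathway genes, those with the largest changes among the called genes of each comparison, in every library of the 5 groups with a line at the group median. Mfng sits between 93.6 and 137 CPM in U and between 0.479 and 10.2 CPM in the BBN bladders.

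In UN against U 1 of 51 was called higher and none lower (13.7% of all genes), Hes6 at 1.07 ± 0.37 (FDR 0.057). That call ended in 2 of 11 other settings (FDR up to 0.321) and without UN 3, U 1, U 2, U 4 or U 5. In UT against UN 1 of 51 was called (5.52% of all genes), Dlk2 at 2.09 ± 0.72 (FDR 0.0971), and the call ended in 8 of 12 other settings (FDR up to 0.799) and in 17 of 24 single omissions. In bladder 5 of 51 were called (13.3% of all genes), Dlk2 higher at 2.22 ± 0.75 and 4 lower. Tle2, a Groucho corepressor, was at -2.18 ± 0.45, Dtx4, a Deltex E3 ligase, at -1.77 ± 0.34, Nrarp, a feedback inhibitor and target of Notch, at -1.57 ± 0.49 and Neurl1a, a ligand ubiquitin ligase, at -1.53 ± 0.37, the last outside the rule for naming and added after its value was seen. Nrarp was at 111, 129 and 133 CPM in the untreated bladders and at 4.78 to 82.7 in the BBN bladders, with no overlap. Nrarp and Dlk2 each lost the call when any 1 untreated bladder was left out (FDR 0.17 to 0.222 and 0.181 to 0.31), and Dlk2 also with no filter on low counts (FDR 0.109).

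U against untreated bladder gave 2 of 51 genes of the list higher and 5 lower (14.9% of all genes in either direction), with a median of -0.30 (all genes 0.04). Mfng was 4.64 ± 0.87 higher in U (FDR 0.000832), where adipocyte markers were also at 38300 CPM or more, and their part in this difference was not tested. Neurl1a was at -3.71 ± 0.43 (FDR 8.53e-06), Maml3 at -1.91 ± 0.48 and Dtx4 at -1.63 ± 0.31. Of the list, 2 of 51 genes differed in their BBN effect between the tissues (2.06% of all genes), Dtx4 by 2.28 ± 0.38 (FDR 0.00132) and Neurl1a by 2.19 ± 0.53 (FDR 0.031). Dtx4 was at 21.6 to 29.6 CPM in U and 21.0 to 54.2 in UN, and at 87.5, 106 and 108 CPM in untreated and 10 to 50.9 in BBN bladder. Luminal urothelial markers had a median of 2.60 in the same interaction, and their part in these 2 differences was not tested.

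Across the 37 libraries, Dll4 and Notch4 had a rank correlation of 0.91, the highest of all pairs of members, and the 3 genes most like Notch4 were Adgrl4, Ptprm and Mcf2l (0.93 each). Notch1, Notch2 and Notch3 ranked together at 0.84 to 0.88. The genes most like them were Polr2a (0.92), Arid1a (0.95) and Srcap (0.97), those most like Jag1 and Jag2 were Sec24c and Kremen1 (0.96 each), like Dll1 Pwp2 (0.93), like Hes1 Tmprss13 (0.90) and like Hey1 Fdxr (0.68). The likeness was taken over 15314 genes, and the libraries differ in depth, tissue and RNA integrity, which the genes share. The share of counts on genes with at least 8 kb of exon had a rank correlation of 0.89 with Notch1, 0.84 with Notch2 and 0.85 with Notch3, and of 0.71 with Jag1, 0.53 with Jag2, 0.46 with Dll1, 0.43 with Dll4, 0.41 with Notch4, 0.25 with Hes1 and 0.18 with Hey1. All 4 receptors are themselves among the 2789 long genes, and Jag1 is not. The share ran from 8.47 to 16.9% in the BBN bladders, 16.7 to 17.5% in the untreated bladders, 12.3 to 16.3% in U, 10 to 17.1% in UN and 13.2 to 17.8% in UT. Its part in the receptor levels was not tested.

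**Figure D5:**
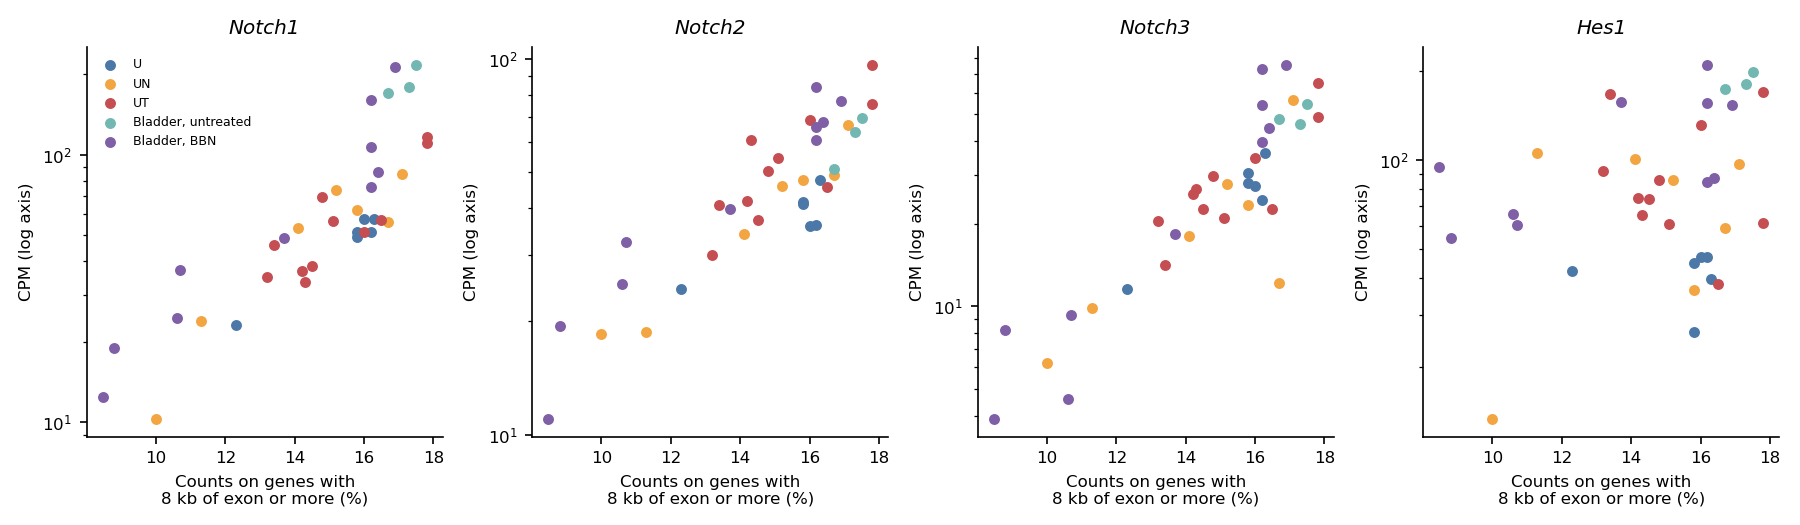
CPM (log axis) of Notch1, Notch2, Notch3 and Hes1 against the percent of a library's counts that fell on genes with at least 8 kb of exon, with 1 point per library in the 5 groups. Notch1, Notch2 and Notch3 rise with that share, with rank correlations of 0.84 to 0.89, and Hes1 does so less, at 0.25.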

How the data were processed

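The deposited table holds raw expected counts of 37 mouse RNA libraries by gene symbol, of which 21.1% of the values above 0 are fractional. The submitters' processing notes list TopHat2 2.1.1, Cuffdiff 2.2.1 and GRCm38/mm10, without roles, and the counter is not given in the sources used here. Columns were matched by name, with 0 columns left without a sample. Values were rounded to whole numbers. Levels are CPM of the column total. Differential expression used edgeR 4.0.16 (quasi-likelihood, TMM, filterByExpr) in R 4.3.3, with 24 ureter libraries in a single fit, 13 bladders in another and 26 libraries (U, UN and both bladder groups) for tissue and interaction. SE is the log2 fold change over the root of F. DESeq2 1.42.0 and limma 3.58.1 served as alternatives, as did RLE scaling, other filters, libraries of a mouse summed, mouse as a random effect or block, RNA integrity, library code range and leaving out single libraries. Permutation tests used scipy 1.17.1.

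The members and lists were chosen with earlier results of these data known, and the ratios to markers, the long gene share and the motifs after the levels were seen. All 10 members are named, and of the other pathway genes up to 4 called genes with the largest change per comparison, and for likeness 3 genes per member (the first is printed for most). Fits take libraries as independent, although the 6 U libraries come from 3 mice, so p-values against U can be too small, and summing the libraries of a mouse was an alternative. A shared number marks a shared mouse among UT, UN and BBN bladder (UT 5L and 5R are from 1 mouse). For the tap water mice, the column names place U 1 and 2, U 3 and 4, and U 5 and 6 with the mice of untreated bladder 1, 2 and 3, and blocks used the mouse. The titles instead number the U libraries from 1 to 6, and the column names were followed. The correlation of deviations from group means had a median of 0.0289 over 7 UT and UN pairs and of -0.00378 over 70 other pairs. For UN and BBN bladder it was -0.105 over 7 pairs and 0.095 over 63 others, and for U and untreated bladder 0.019 over 6 and -0.0494 over 12. The shared mice thus rest on the labels and were not shown by expression. Within groups the chi-square per degree of freedom was at least 7.37, and no library was counted as a copy. In simulated data, edgeR recovered 81% of 200 genes changed 4-fold among 15520 tested for UT against U, 75.5% for UN against U among 15519, 83% for UT against UN among 15513, 23.5% for the bladders among 16724, 36.5% for U against bladder among 17516 and 16% for the interaction among 17444. The simulated libraries were independent, with no shared mice and the same spread in every group, so recovery in the real data can be lower.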

Additional observations from a re-analysis of the deposited data

Results flagged for a closer look

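By Dixon's test on log2(CPM + 1), 6 values of members lay apart from the rest of their group of 4 to 10 libraries, out of 30 groups tested. Chance flags about 1 in 20 groups. Of these, 5 were the lowest value of U 6, at 23.2 CPM of Notch1, 11.6 of Notch3, 15.9 of Notch4, 29.2 of Jag1 and 1.76 of Dll1, where the next U library had 49.3, 24.3, 31.6, 56.4 and 3.83 CPM. U 6 also had the lowest long gene share of U (12.3%) and the highest adipocyte sum (60600 CPM). The last was Hes1 in U 4, at 26.4 CPM against 39.7 in the next library. Over all single omissions, U 6 included, Notch4 in UT against U ran from -1.80 to -1.38.

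In the wider pathway list, 2 of 51 tested genes (2.06% of all genes) differed between tissues in their response to BBN by the interaction term, Dtx4 by 2.28 and Neurl1a by 2.19 on the log2 scale. Dtx4 was called in every other setting. The part of the cell type markers that moved in the same interaction was not tested. Neurl1a lost the call with the libraries of a mouse summed (2.14, FDR 0.222) and without untreated bladder 1 or 2 (FDR 0.159 and 0.103).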

How the results depend on the processing

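The direction of every called member was kept in every setting and single omission. Of 650 log2 fold changes of members under other settings, 562 kept direction and call, 26 gained and 4 lost the call, and 58 changed sign. Of 1370 with 1 library left out, 1263 kept both, 15 gained, 12 lost and 80 changed sign. All sign changes were in values that passed no call. Of 50 group means of members, 45 moved by less than 1 SD with TMM library sizes, and the other 5 were in untreated bladder. The cause of these changes was not tested.

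The number of members called in UT against U was 1 with RNA integrity as a covariate, 3 with a random mouse effect, group variances or the first range of library codes, and 2 to 3 over single omissions (3 without U 2, U 3 or UT 9). In UN against U it was 0 with summed libraries, 2 with a random mouse effect, group variances, deep libraries alone (those of 8000000 counts or more), the first range of library codes or RNA integrity, and 1 to 2 over single omissions (2 without UN 6 or UN 9). In bladder it was 3 with group variances, 2 with the first code range and 0 to 2 over single omissions (0 without any of the untreated bladders, 2 without BBN bladder 8). In U against bladder it was 5 with DESeq2, a random mouse effect, group variances, deep libraries alone or 2 groups alone, 1 with summed libraries and 1 to 5 over single omissions (1 without any of the untreated bladders, 2 without U 3, U 4 or U 5, 5 without BBN bladder 6). In the interaction it was 0 to 1 (1 without UN 2), and in UT against UN 0 in every setting and omission.

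The replicate block, with UT and UN paired over 7 mice and U and bladder over 3, called 0 members in UT against UN, 5 in U against bladder and 0 in the interaction, and changed no other call of a member. For UT against UN and U against bladder these fits hold only the 2 groups compared, and the same 2 groups without a block also called 0 and 5 members. In the bladders no mouse had 2 libraries, so summing and the mouse effect were not run there, and no paired analysis was possible there because no animal gave both groups.

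In UT against U, Notch1, at 0.02, was -0.01 with DESeq2, -0.02 with RLE, -0.05 with a random mouse effect, -0.06 with group variances, -0.01 with deep libraries alone and -0.37 with the first code range and ran from -0.11 to 0.08 over single omissions. Jag1, at 0.45, was -0.09 with the first code range and ran from -0.04 to 0.52 over single omissions. Notch3, at -0.09, ran from -0.26 to 0.01 over single omissions. In UN against U, Jag1, at 0.03, was -0.01 with DESeq2, -0.00 with RLE, -0.01 with no filter, -0.02 with a random mouse effect, -0.07 with group variances, -0.00 with deep libraries alone and -0.11 with the first code range and ran from -0.10 to 0.20 over single omissions. Notch1, at 0.06, was -0.01 with no filter, -0.13 with a random mouse effect, -0.16 with group variances, -0.17 with deep libraries alone, -0.08 with the first code range and -0.02 with RNA integrity and ran from -0.17 to 0.23 over single omissions. Notch2, at 0.08, was -0.10 with a random mouse effect, -0.11 with group variances, -0.19 with deep libraries alone and -0.05 with the first code range and ran from -0.19 to 0.21 over single omissions. Jag2, at 0.17, ran from -0.04 to 0.34 over single omissions. In UT against UN, Notch1, at -0.04, was 0.03 with no filter, 0.01 with summed libraries, 0.09 with a random mouse effect, 0.10 with group variances, 0.15 with deep libraries alone and 0.15 with RNA integrity and ran from -0.21 to 0.15 over single omissions. Notch4, at -0.09, was 0.01 with summed libraries, 0.01 with RNA integrity and 0.06 with the replicate block and ran from -0.37 to 0.27 over single omissions. Dll4, at 0.01, was -0.19 with the first code range and ran from -0.24 to 0.19 over single omissions. Jag1, at 0.42, was -0.10 with the replicate block and ran from -0.07 to 0.56 over single omissions. In BBN bladder against untreated bladder, Jag1, at -0.04, was 0.35 with deep libraries alone and 0.27 with RNA integrity and ran from -0.19 to 0.09 over single omissions. In U against untreated bladder, Jag1, at -0.30, was 0.07 with RNA integrity. In the interaction of BBN and tissue, Notch3, at 0.04, was -0.02 with DESeq2, -0.03 with RLE, -0.25 with deep libraries alone and -0.06 with RNA integrity and ran from -0.30 to 0.26 over single omissions. Notch4, at 0.06, was -0.06 with DESeq2, -0.06 with RLE, -0.67 with the first code range, -0.02 with RNA integrity and -0.24 with the replicate block and ran from -0.31 to 0.21 over single omissions. Jag1, at 0.03, was -0.02 with DESeq2, -0.02 with RLE, -0.32 with deep libraries alone and -0.06 with RNA integrity and ran from -0.14 to 0.20 over single omissions. Hey1, at -0.08, was 0.15 with a random mouse effect, 0.15 with group variances and 0.18 with the replicate block and ran from -0.30 to 0.28 over single omissions. Notch2, at 0.17, was -0.10 with deep libraries alone and ran from -0.02 to 0.30 over single omissions. Dll1, at 0.12, was -0.08 with deep libraries alone and -0.13 with RNA integrity and ran from -0.25 to 0.28 over single omissions. Dll4, at 0.11, was -0.20 with the first code range and ran from -0.09 to 0.27 over single omissions.

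Calls over all genes moved by more than 1.5 times in UN against U, from 2139 to 157 with summed libraries and 1301 with a random mouse effect. In UT against UN they went from 864 to 2248 with DESeq2, 1390 with no filter, 26 with the first code range, 13 with summed libraries, 6 with deep libraries, 2 with a random effect and 0 with group variances, RNA integrity, 2 groups alone or the block, and over single omissions from 5 (without UT 5L) to 1854 (without UN 7). They moved by more than 1.5 times without UT 2, 3, 4, 5L, 5R, 9 or 10 and without UN 2, 3, 6 or 7. In bladder 2409 became 6565 with DESeq2 (82.4% higher, 57% before), 5670 with group variances and 4401 with the first code range (70.4% higher), and 1024, 1075 and 1039 without untreated bladder 1, 2 and 3. In U against bladder 2802 became 1369 with summed libraries, 5510 with group variances, 4590 with 2 groups alone and 4602 with the block, and 1633, 1855 and 1680 without those bladders in turn. In the interaction 387 became 932 with DESeq2 (48.8% higher, 73.4% before), 73 with summed libraries, 1819 with group variances, 1009 with deep libraries, 718 with RNA integrity and 618 with the block, and 149, 186 and 149 without those bladders, 251 without U 4 and 590 without UN 6. RLE moved the median of all genes in the interaction from -0.10 to -0.24 and in bladder from 0.25 to 0.35. Of the calls in UN against U, 91.2% were higher, and 57.7% with a random mouse effect and 64.7% with group variances.

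The 3 untreated bladders and 3 tap water mice limit every comparison with bladder or U.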
